A study of Mus musculus with 12 samples.

Results

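Levels of 10 transcripts that mark fibroblasts of the vessel wall and of connective tissue sheaths (adventitial or progenitor-type fibroblasts) were followed in mouse embryonic fibroblasts (MEFs) with and without the 4 factors of induced reprogramming, Oct4, Sox2, Klf4 and Myc (OSKM). The genes were Pi16, Myoc, Chrdl1, Dpp4, Ly6a, Ly6c1, Cd34, Sema3c, Dpt and Clec3b, which are 10 of the 55573 genes in the count table and were found through their Ensembl identifiers. Pi16, Myoc and Chrdl1 were chosen by their response to induction in these same libraries, so for these 3 genes the induction values are a description and carry no test. The other 7 were taken in as markers of the same fibroblast type. All 10 passed the filter on low counts, as did 19174 genes in all.

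The cells came from C57BL/6 embryos at day E13.5 and carried a doxycycline-inducible OSKM cassette (i4F-B strain). Cells of 3 embryos, labelled clones 1 to 3, were each grown in medium for induced pluripotent stem cells for 72 h under 4 conditions: untreated (MEF), with vitamin B12 at 2 µM (MEF with B12), with doxycycline at 1 µg/ml (OSKM), and with both (OSKM with B12). Each group therefore held 3 libraries, 1 from every clone, and the design compared induced with uninduced cells, B12 with no added B12, and asked whether B12 altered the response to induction. Doxycycline was given to induced cells only, so effects of the drug and of the factors cannot be told apart. The labels give this dose in µg/ml, while the methods state the same figure in mg/ml.

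Totals ranged from 56971244 to 79236795 counted read pairs per library. Pou5f1, which encodes Oct4, spanned 0 to 0.468 CPM (the count after scaling each library to 1e6) without induction, 18.5 to 20.7 CPM in induced clones 1 and 2, and 2.33 to 2.86 CPM in induced clone 3. Clone 3 thus had far less of the induced transcript. One library stood apart: over 1519 pseudogenes, the OSKM library of clone 1 deviated from the other libraries of its clone with an SD of 0.556 on the log2 scale, against 0.114 to 0.247 in the other 11 libraries. Calls of the 10 genes that change without that library are stated where the fit was repeated without it. Xist lay between 0.0147 and 0.0289 CPM in clone 1 and between 219 and 350.2 CPM in clones 2 and 3, while the Y-linked Ddx3y was at 80.2 to 97.02 CPM in clone 1 and at 0 in the others. The titles also give clone 1 another year than the remaining clones, so clone, sex transcripts and year cannot be told apart.

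Fibroblasts are not uniform within a tissue. Those of the adventitia, the outer sheath of vessels, and of the fascia carry Pi16, Dpp4, Ly6a and Cd34 and are regarded in several mouse tissues as a pool from which more specialised fibroblasts and preadipocytes arise, whereas parenchymal fibroblasts lie among the functional cells of an organ and use another set of genes such as Cxcl12, Col15a1 and Lpl. Reprogramming factors act on such fibroblasts first by lowering genes of the somatic programme and later by raising epithelial and pluripotency genes. All 12 libraries held high levels of general fibroblast transcripts, with Col1a1 between 25430 and 45810 CPM and Pdgfra between 387 and 564 CPM.

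The promoters of Myoc and Dpp4 are shown because Myoc had the largest induction difference of the 10 genes, because both genes stood higher after induction in clones 1 and 2, and because neither window overlaps an annotated exon. RefSeq (GRCm38.p6) gave a promoter for 7 of the 10 genes and no entry for Chrdl1, Ly6a and Clec3b. The 250 bases before the Myoc start are chr1:162638900-162639149 on the plus strand, and those before the Dpp4 start are chr2:62412232-62412481 on the minus strand. Both are written 5′ to 3′ on the strand of the gene, with motif matches in capitals.

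Myoc: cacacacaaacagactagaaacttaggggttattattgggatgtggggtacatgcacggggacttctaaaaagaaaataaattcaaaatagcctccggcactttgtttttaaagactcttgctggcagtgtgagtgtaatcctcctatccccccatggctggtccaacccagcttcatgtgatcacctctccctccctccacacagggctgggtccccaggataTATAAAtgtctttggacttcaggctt

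Dpp4: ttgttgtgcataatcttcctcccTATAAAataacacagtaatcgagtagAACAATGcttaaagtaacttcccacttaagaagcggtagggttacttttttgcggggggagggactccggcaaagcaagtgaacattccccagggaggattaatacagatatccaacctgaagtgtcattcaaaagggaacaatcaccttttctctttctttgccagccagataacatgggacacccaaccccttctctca

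The motifs searched on both strands were the octamer ATGCAAAT, the SOX motif AACAATG, the KLF motif CCACACCC, the E-box CACGTG and the TATA box TATAAA, none of which overlaps another. The Myoc window held TATAAA 26 bases before the start. The Dpp4 window held AACAATG 201 bases and TATAAA 227 bases before the start. Over 32851 promoter windows of the same length, TATAAA was found in 12.4% and AACAATG in 3.29%, and the others in 1.6% (octamer), 3.2% (KLF) and 6.02% (E-box). A match says only that these letters are present. The exons of Pi16, Myoc, Dpp4 and Cd34 overlap a gene on the opposite strand, and the counting used the strand.

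Per kilobase of annotated exon, so that genes can be compared with each other, the 10 transcripts spanned a wide range in untreated MEFs. Dpt, the collagen-binding matrix protein dermatopontin, was highest at 416 ± 93.4 CPM per kb (SD, n = 3), followed by Ly6a, the surface protein Sca-1, at 372 ± 68.0, neighbours that did not differ beyond their spread. Clec3b, the plasminogen-binding protein tetranectin, stood at 136 ± 56.95 CPM per kb. The guidance factor Sema3c at 42.4 ± 8.46, the surface protein Ly6c1 at 39.9 ± 11.3 and the sialomucin Cd34 at 36.1 ± 2.93 CPM per kb did not differ beyond their spread. Chrdl1, a secreted antagonist of bone morphogenetic proteins (BMPs), was at 5.71 ± 2.60 CPM per kb. Pi16, a membrane-attached protein of the CAP superfamily, was at 2.32 ± 0.626, the membrane protease Dpp4 at 1.18 ± 0.499 and Myoc, the secreted glycoprotein myocilin, at 1.12 ± 1.10 CPM per kb. The spread of Myoc overlapped those of both Dpp4 and Pi16. Ly6a and Ly6c1 are uncertain in level, since 31.9% and 46.8% of their 31-base sequence words also occur in transcripts of other genes, above all Ly6c1 for Ly6a and Ly6c2 for Ly6c1.

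The 3 genes chosen by their induction response differed from one another mainly in how the clones behaved. Pi16 (chromosome 17, 29317680 to 29330593, GRCm38, plus strand) was at 10.3, 16.2 and 17.9 CPM in MEF libraries of clones 1, 2 and 3, at 9.15, 15.8 and 15.3 in MEF with B12, at 143, 151 and 22.8 in OSKM, and at 132, 150.5 and 24.9 CPM in OSKM with B12. The 4 induced libraries of clones 1 and 2 stood far above all other libraries, and the induced libraries of clone 3 lay just above the uninduced range. As means over both B12 conditions, induced cells had 14.2, 9.46 and 1.44 times the Pi16 CPM of uninduced cells in clones 1, 2 and 3. In bulk RNA, more cells of a type and more RNA per cell cannot be told apart.

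Myoc (chromosome 1, 162639155 to 162649693, plus strand) already varied between uninduced clones. It was at 0.381, 1.77 and 4.84 CPM in MEF of clones 1 to 3 and at 0.303, 1.52 and 3.91 in MEF with B12. After induction it was at 11.6, 76.5 and 9.64 CPM without B12 and at 8.32, 68.3 and 8.20 with B12. Every induced library exceeded every uninduced one, but the clone with the lowest start and the clone with the highest start ended at similar levels, while clone 2 stood alone. The ratio of induced to uninduced mean CPM was 29.1 in clone 1, 44.1 in clone 2 and 2.04 in clone 3. In fitted log2 units, without B12, the 3 clones together gave 3.45 for Myoc and 2.52 for Pi16. The log2 differences of clones 1, 2 and 3 without B12 were 4.82, 5.41 and 0.99 for Myoc and 3.79, 3.23 and 0.35 for Pi16.

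Chrdl1 (chromosome X, 143285674 to 143394262, minus strand) was at 20.3, 55.2 and 40.2 CPM in MEF, 18.7, 46.5 and 39.2 in MEF with B12, 54.7, 90.8 and 46.9 in OSKM, and 49.4, 84.8 and 42.1 CPM in OSKM with B12. Induced libraries were higher than uninduced libraries of their own clone in all 6 pairs, by 2.67 times in clone 1, 1.73 times in clone 2 and 1.12 times in clone 3, yet the groups overlapped across clones, with the MEF library of clone 2 above all induced libraries of clones 1 and 3. Chrdl1 lies on the X chromosome and clone 1 is the clone without Xist; the part of this in its lower level was not tested.

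**Figure D1:**
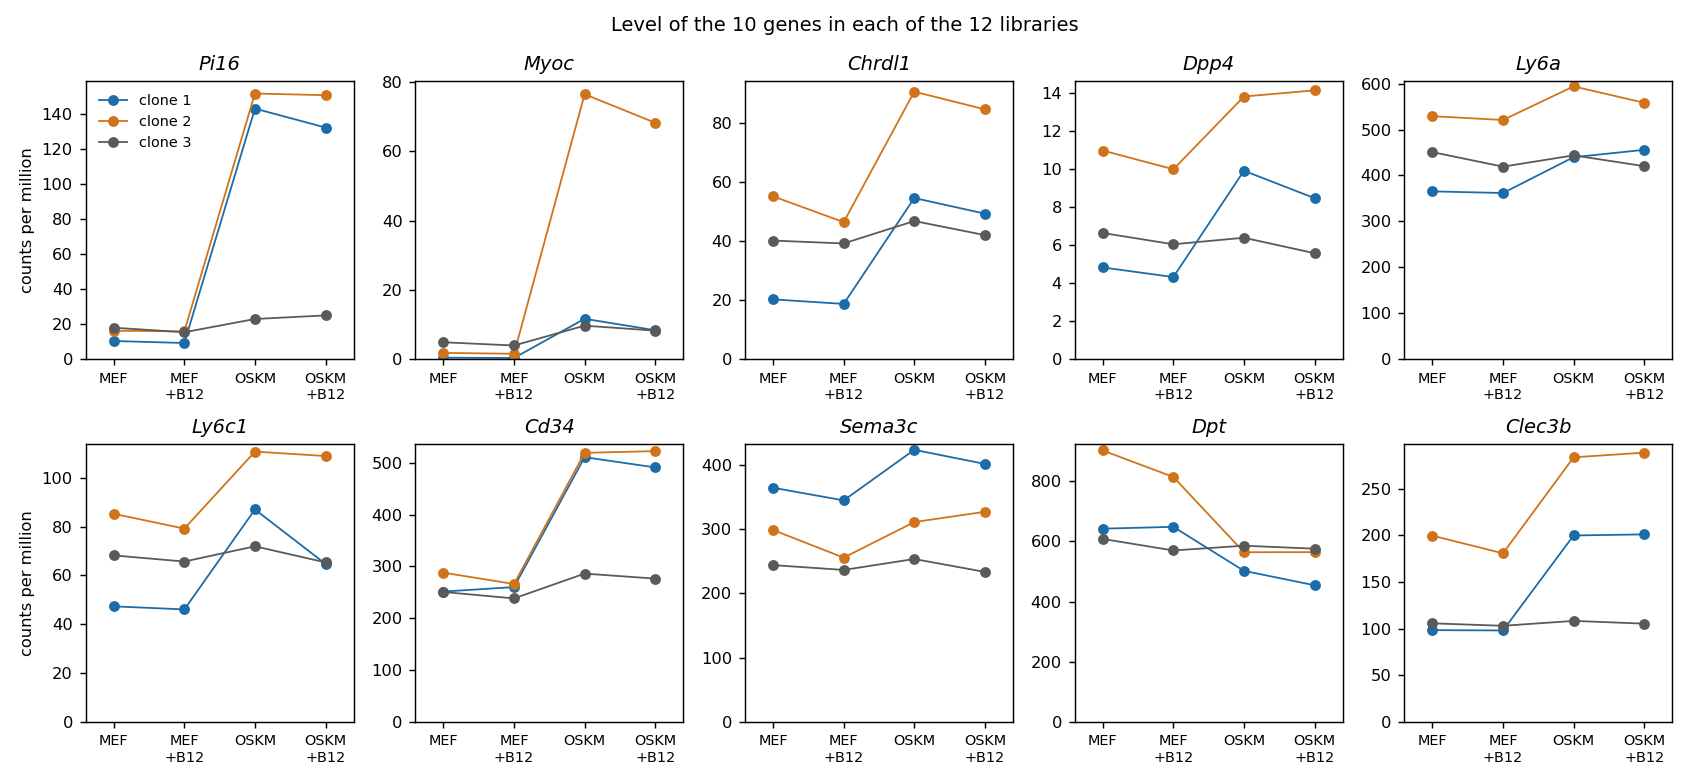
CPM of each of the 10 genes (vertical axes from 0, a scale for each gene) in the 4 groups (horizontal axis), with 1 point per library and a line joining the libraries of a clone. Pi16 and Cd34 part into high values in induced clones 1 and 2 and near-baseline values in clone 3, Myoc is highest in clone 2, and Dpt falls to 454 to 564 CPM in induced clones 1 and 2.

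Among the 7 other genes, induction over all 3 clones gave no call. In the edgeR quasi-likelihood test with clone as a block, 0 of 7 passed an adjusted p of 0.05 without B12 (adjusted p 0.159 to 0.383, 4 of 7 under an unadjusted p of 0.05) and 0 of 7 with B12 (0.176 to 0.371, 6 of 7 unadjusted). The share of all tested genes called was 0.073% without and 0.104% with B12, so few genes of any kind passed. The median log2 fold change of the 7 was 0.43 without and 0.31 with B12, against -0.01 and 0.00 over all genes tested. DESeq2 called Cd34, Dpt and Ly6c1 without B12 and Cd34 with B12, among 487 and 416 genes in all. Leaving out clone 3 raised the calls to 4 of 7 in each comparison, Cd34, Clec3b and Dpt in both, Ly6c1 without B12 and Sema3c with B12, among 1322 and 1004 genes in all.

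The size of the response depended on the clone. In a test of the difference in response between clones, 5 of the 7 passed, against 2.15% of all genes: Clec3b (adjusted p 0.000653), Cd34 (0.00202), Dpp4 (0.00927), Dpt (0.0144) and Ly6c1 (0.049). Ly6a (0.14) and Sema3c (0.413) did not pass. Without clone 3, which leaves clones 1 and 2 compared with each other in fewer libraries, 0 of 7 passed, and the adjusted p of these 5 was 0.689 to 0.919. In that setting the test called 0 genes in all, so the 0 of 7 is not particular to these genes. Ly6c1 stood at 0.0505 with DESeq2 size factors. Dpp4 was lost without clone 1 (adjusted p 0.0614), Dpt without clone 2 (0.0973), and Ly6a was gained without the OSKM library of clone 1 (0.0223). The difference was therefore also fitted within each clone, as the mean over both B12 conditions. This within-clone fit was chosen after seeing the data, and each clone and state holds 2 libraries that differ in B12, so its p-values measure the spread between such libraries of 1 embryo and do not extend to other embryos.

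In clone 1, 6 of the 7 rose and 1 fell, against 6.44% of all genes higher and 7.89% lower. In clone 2, 4 rose and 1 fell, against 4.81% higher and 5.61% lower. In clone 3, 0 of 7 passed (1 of 7 at an unadjusted p of 0.05), where 0.0156% of all genes did. Without clone 3, whose removal leaves fewer libraries to estimate the spread, 3 of 7 passed in clone 2, with Dpp4 at an adjusted p of 0.0593 and Ly6c1 at 0.0535. Without the OSKM library of clone 1, 6 of 7 passed in clone 1 and 7 of 7 in clone 2. The counts over all genes moved too, from 2746 in clone 1 and 1998 in clone 2 in the main fit. They were 1403 and 1066 without clone 3, and 2143 and 3243 without that library.

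**Figure D2:**
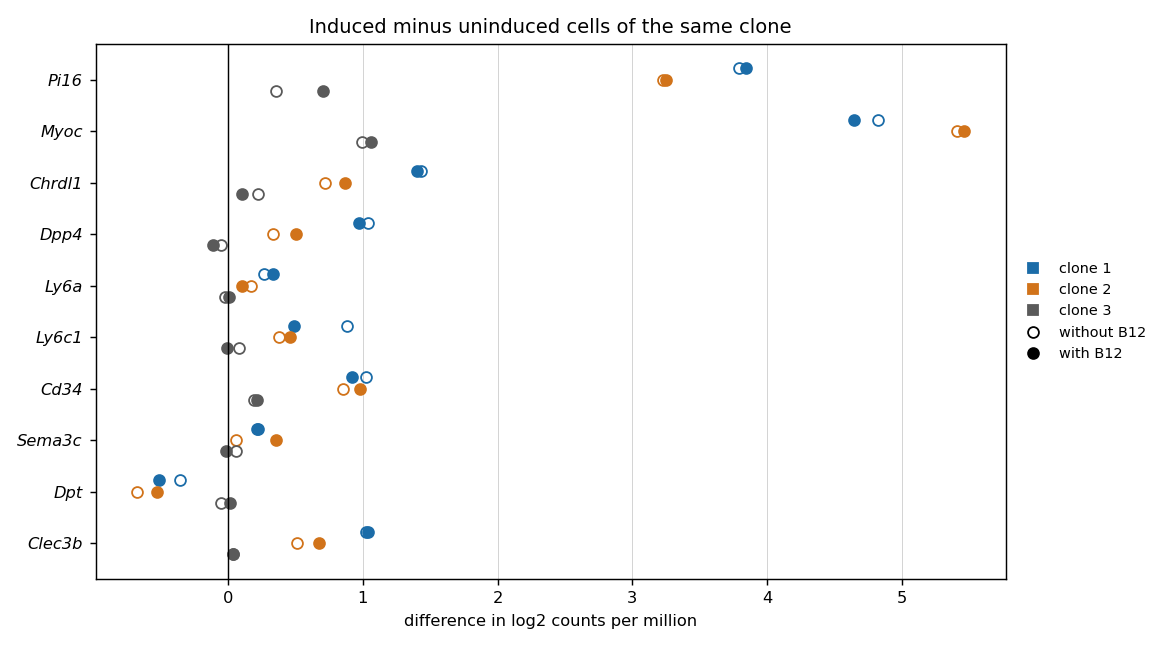
Difference in log2 CPM between induced and uninduced libraries of the same clone (horizontal axis, a difference of 0 marked) for the 10 genes, with open points without B12 and filled points with B12, coloured by clone. Clones 1 and 2 lie to the right for Pi16, Myoc, Chrdl1, Cd34 and Clec3b and to the left for Dpt, and clone 3 stays within 0.22 of 0 for the 7 genes other than Pi16, Myoc and Chrdl1.

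Of the surface proteins, Cd34, a sialomucin of progenitor cells and of adventitial fibroblasts, gave near-equal responses in clones 1 and 2. It was at 251, 288 and 251 CPM in MEF, 260.04, 266 and 238 in MEF with B12, 511, 519 and 286 in OSKM, and 491, 523 and 276 CPM in OSKM with B12. The 4 induced libraries of clones 1 and 2 lay well above every other library, and those of clone 3 fell among the highest uninduced values. The log2 fold change was 0.97 ± 0.05 (SE, edgeR adjusted p 1.32e-05) in clone 1 and 0.91 ± 0.05 (1.64e-05) in clone 2, and 0.20 ± 0.05 in clone 3, where the adjusted p was 1.

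Dpp4 (chromosome 2, 62330073 to 62412231), which trims peptide hormones and chemokines at the cell surface, was at 4.81, 10.95 and 6.62 CPM in MEF, 4.31, 9.97 and 6.03 in MEF with B12, 9.89, 13.8 and 6.37 in OSKM, and 8.45, 14.1 and 5.56 CPM in OSKM with B12. Clone 2 was the highest in every group, so induced and uninduced libraries overlapped across clones. Within clones it rose by 1.01 ± 0.09 in clone 1 (edgeR adjusted p 0.000221) and 0.42 ± 0.08 in clone 2 (0.0135) on the log2 scale, and its value was -0.08 ± 0.09 in clone 3. Ly6c1, a member of the Ly6 surface protein family, was at 47.3, 85.3 and 68.2 CPM in MEF, 46.0, 79.2 and 65.7 in MEF with B12, 87.0, 111 and 71.9 in OSKM, and 64.7, 109 and 65.3 CPM in OSKM with B12. It rose by 0.69 ± 0.08 in clone 1 (adjusted p 0.000987) and 0.42 ± 0.08 in clone 2 (0.0111). The clone 1 difference without B12, which uses the library that stood apart, was 0.88 against 0.49 with B12. Ly6a, the stem and progenitor cell antigen Sca-1, ranged from 362 to 594 CPM over all libraries and rose in clone 1 by 0.30 ± 0.05 (adjusted p 0.006). In clone 2 it gave 0.13 ± 0.05 (0.156), and it passed there without the OSKM library of clone 1.

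Of the secreted and matrix proteins, Clec3b (chromosome 9, 123150946 to 123157432) was at 98.3, 199.6 and 106 CPM in MEF, 97.9, 181 and 103 in MEF with B12, 199.8, 284 and 108 in OSKM, and 201, 289 and 105 CPM in OSKM with B12. As means, clone 1 went from 98.1 to 200.4 CPM and clone 2 from 190.1 to 286 CPM, while clone 3 stayed within 103 to 108 CPM. The log2 fold change was 1.03 ± 0.05 in clone 1 (edgeR adjusted p 7.77e-06), 0.59 ± 0.05 in clone 2 (0.000133) and 0.03 ± 0.05 in clone 3. Sema3c, a class 3 semaphorin that steers migrating cells, ranged from 234 to 424 CPM, with clone 1 highest in every group. It passed in clone 1 only narrowly at 0.22 ± 0.06 (adjusted p 0.0468), which became 0.161 without the OSKM library of clone 1 and 0.104 without clone 3. In clone 2 Sema3c gave 0.21 ± 0.06 (0.0703), and it passed there without the OSKM library of clone 1.

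Dpt went the other way. Dermatopontin transcripts stood at 643, 903 and 608 CPM in MEF, 649, 815 and 570.1 in MEF with B12, 502, 564 and 586 in OSKM, and 454, 564 and 576 CPM in OSKM with B12. The 4 induced libraries of clones 1 and 2 were below all 6 uninduced libraries. Dpt fell by 0.43 ± 0.06 on the log2 scale in clone 1 (edgeR adjusted p 0.0015) and by 0.60 ± 0.06 in clone 2 (0.000232), and its value was -0.02 ± 0.06 in clone 3.

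Added B12 left the 10 transcripts without a call when clone alone was the block. In the edgeR test, 0 of 10 passed in OSKM cells (adjusted p 0.644 to 0.999), 0 of 10 in MEFs (0.623 to 0.97) and 0 of 10 in the average over both states (0.471 to 0.937), and 0 of 10 were under an unadjusted p of 0.05 in each. Of all genes tested, 1.06%, 1.38% and 3.84% were called in these 3 comparisons. DESeq2 also called 0 of 10 in each, where it called 388, 469 and 934 genes in all. The fitted differences of the average were all negative, from -0.28 for Myoc to -0.03 for Clec3b, and 55.1% of all genes were also negative. So were those of all 12 general fibroblast markers, from -0.27 for Fn1 to -0.03 for Col3a1. Of these 12, Prrx1 alone passed (-0.15, edgeR adjusted p 0.0336), and 0 passed without clone 3. Counted pair by pair, the library with B12 was the lower one in 50 of 60 gene-by-pair comparisons (83.3%), against 51.9% over all genes tested. The 10 genes share the same 6 pairs, so the 60 comparisons are not independent.

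Myoc, Chrdl1 and Ly6c1 were lower with B12 in all 6 pairs, as were 7.64% of all genes tested. For Myoc the 6 log2 differences ran from -0.48 to -0.16, with a fitted average of -0.28 ± 0.61 (SE) when clone alone was the block. This large error includes the spread of the induction response between clones. With a block for each clone and state, a fit chosen after seeing the data, the same difference was -0.28 ± 0.06 and Myoc alone passed (edgeR adjusted p 0.0328), 1 of 10 against 5.64% of all genes. The largest of the 6 differences, -0.48, was that of induced clone 1, which uses the OSKM library that stood apart. Whether Myoc passes in this fit without that library or without a clone was not examined. Chrdl1 gave -0.13 ± 0.03 in that fit (adjusted p 0.0536) and Ly6c1 -0.13 ± 0.05 (0.164). Under an unadjusted p of 0.05, the same fit held 4 of 10 in the average, 3 in OSKM cells and 4 in MEFs. Over all genes these counts were 3775, 2581 and 2603 of 19174. For Pi16 the differences ran from -0.23 to 0.12, and for Cd34 from -0.11 to 0.05. Neither gene had 1 direction in all pairs.

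**Figure D3:**
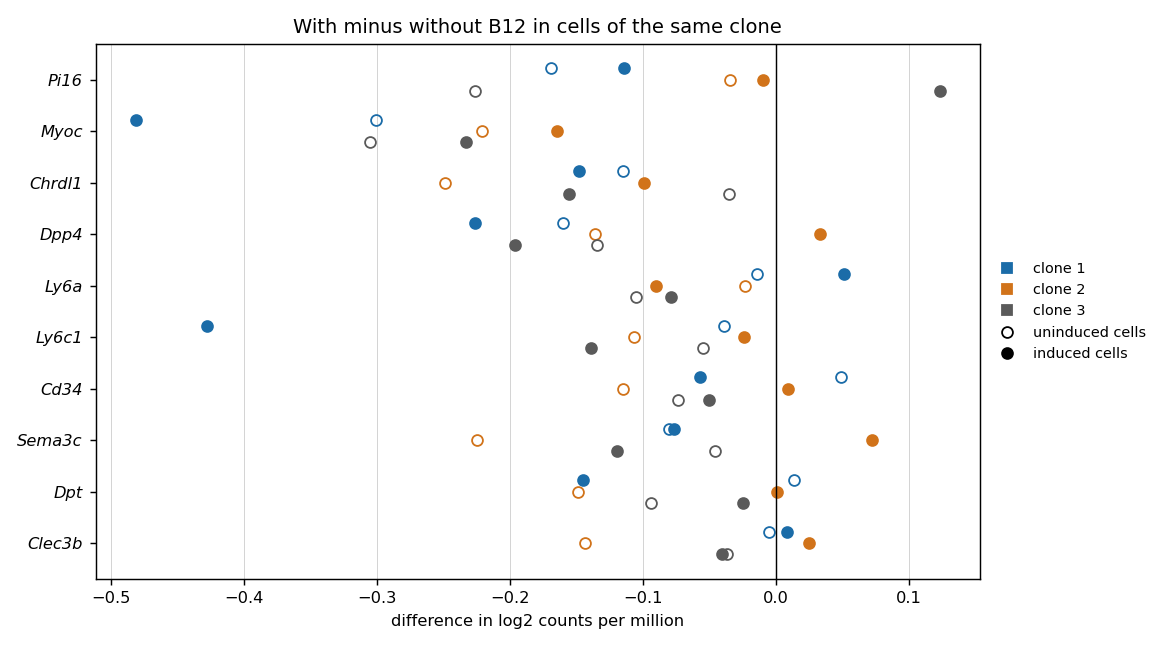
Difference in log2 CPM between libraries with and without B12 of the same clone and state (horizontal axis, 0 marked) for the 10 genes, with open points for uninduced and filled points for induced cells, coloured by clone. Most points lie to the left of 0 and within 0.25 of it, and only Myoc and Ly6c1 in induced clone 1 lie beyond -0.4.

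The interaction, the B12 difference in OSKM cells minus that in MEFs, ran from -0.14 for Ly6c1 to 0.13 for Pi16. In the edgeR test 0 of 10 passed (adjusted p 1 for each, 0 of 10 at an unadjusted p of 0.05), 0% of all genes were called, and DESeq2 called 0 of 10. The 273 genes under an unadjusted p of 0.05 held none of the 10.

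A list of 25 other adventitial and interstitial progenitor genes also had calls within clones 1 and 2 and none in clone 3. Their summed level in clone 1 was 4466 and 4456.5 CPM uninduced and 5171 and 4939 CPM induced, without and with B12. In clone 2 the sum was 5507 and 4027 CPM uninduced and 4630 and 5023 CPM induced, lower without B12 and higher with it. Over all clones, edgeR called 0 of 25 with or without B12. Within clones, 10 of 25 rose and 1 fell in clone 1, with a median of 0.29 in log2 fold change, and 8 rose and 2 fell in clone 2, with a median of 0.07, against -0.01 and 0.00 over all genes. In clone 3, 0 of 25 passed. Without the OSKM library of clone 1, 7 rose and 1 fell in clone 1. The largest changes were those of Efhd1, a calcium-binding mitochondrial protein, from 0.445 to 3.31 CPM in clone 1 (2.87 on the log2 scale, edgeR adjusted p 0.000147) and 0.325 to 2.48 CPM in clone 2 (2.93, 0.00016). Has1, a hyaluronan synthase, rose by 1.86 in clone 1 and 1.19 in clone 2 from under 1 CPM. Bmp7, a BMP ligand (1.22 and 1.53), and Dact2, an intracellular modulator of signalling (1.11 and 1.80), rose in both clones but stayed under 1.3 CPM.

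Among more abundant genes of this list, the ligand Wnt2 went from 16.3 to 32.8 CPM in clone 1 and 10.1 to 25.7 CPM in clone 2, and from 11.6 to 12.9 CPM in clone 3. Igfbp6, which binds insulin-like growth factors, went from 128 to 259.8 CPM, 127 to 248 CPM and 105 to 109.7 CPM in the same order. Il33, an alarmin cytokine, fell by 0.52 in clone 1 and 0.60 in clone 2. Igfbp6 and Il33 were chosen for mention after their values were seen. The test of a difference between clones called 7 of the 25, and 0 of 25 without clone 3, where it called 0 genes in all.

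The 13 tested genes of parenchymal and preadipocyte-type fibroblasts had lower medians, -0.28 in clone 1 and -0.19 in clone 2. In clone 1, 7 fell and 2 rose. In clone 2, 5 fell and 1 rose, and in clone 3, 0 of 13 passed. Without the OSKM library of clone 1, 6 fell and 3 rose in clone 2. The test of a difference between clones called 3 of the 13, 7 without that library and 0 without clone 3, where it called 0 genes in all. Hsd11b1, the enzyme that regenerates active glucocorticoid, fell by 0.92 and 1.22 on the log2 scale. Cxcl12, a chemokine that retains blood cell progenitors, went from 636 to 456 CPM in clone 1 and from 1003 to 681 CPM in clone 2. Lpl, lipoprotein lipase, fell by 0.41 and 0.43. Pparg, the master regulator of fat cells, rose by 0.70 in clone 1, and the opioid precursor Penk by 0.54 in clone 2. With B12 averaged over both states, 1 of these 13 passed, the fatty acid transporter Cd36, higher by 0.87, and 1 of the 25 adventitial genes, Limch1, lower by 0.22. In that average 11 of 12 macrophage markers also rose, and the part of macrophages in the Cd36 difference was not tested. Limch1 did not pass without the OSKM library of clone 1, where 0 of 25 did.

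**Figure D4:**
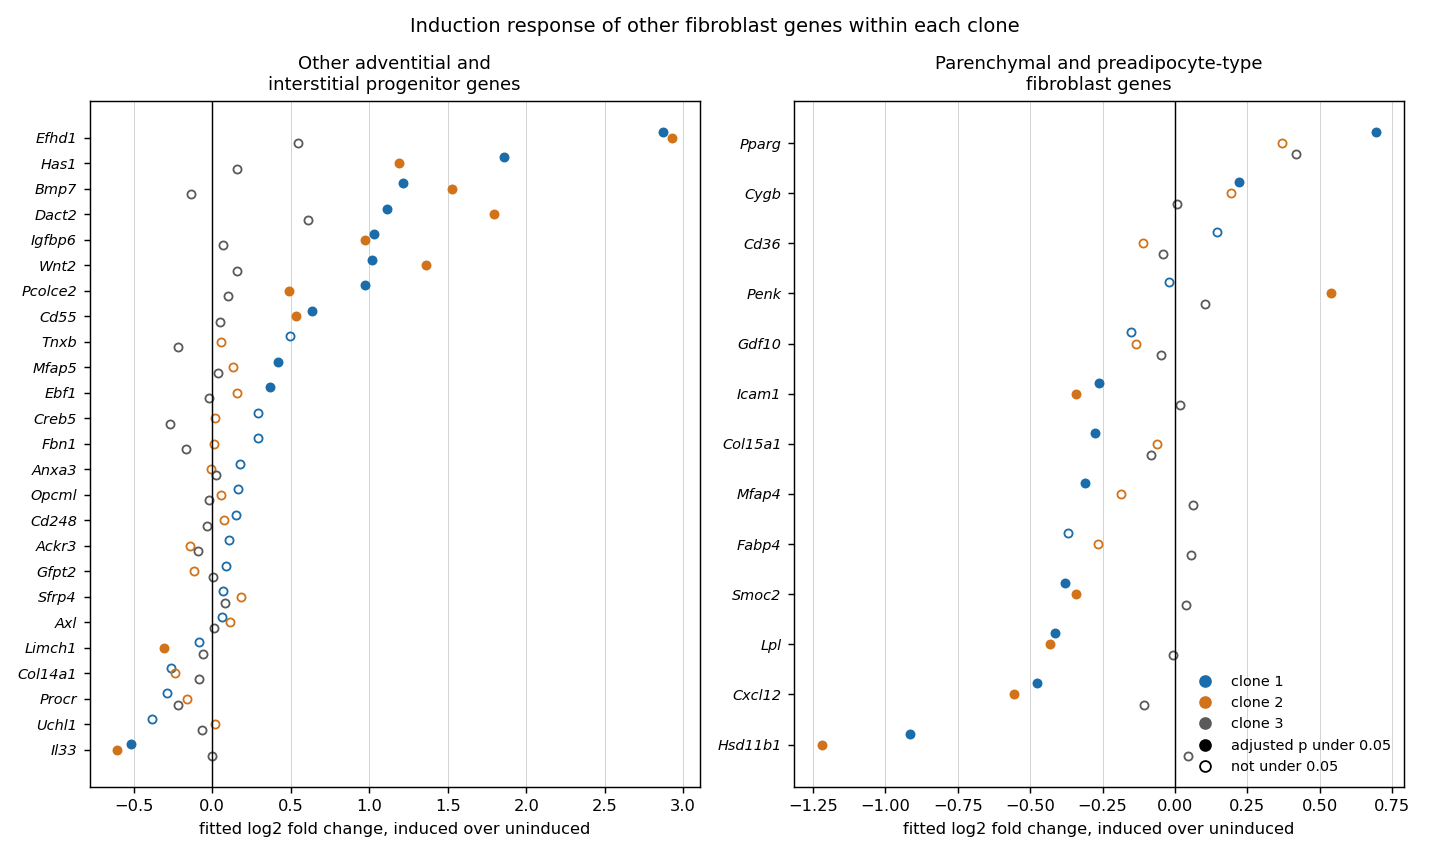
Fitted log2 fold change of induced over uninduced cells within each clone (horizontal axes, 0 marked) for the 25 other adventitial genes (left) and 13 parenchymal-type genes (right), ordered by clone 1, with filled points where the edgeR adjusted p was under 0.05. Clone 3 has no filled point, and most filled points lie right of 0 on the left and left of 0 on the right.

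Relatives of the 10 genes were examined by family. Chrdl1 belongs to the BMP antagonists, among which Grem1, Bmper and Fstl3 fell in clone 1 by 0.59, 0.32 and 0.31 on the log2 scale, and Bmper and Fstl3 fell in clone 2 by 0.46 and 0.35, where Chrd rose by 0.41. Of BMP ligands and receptors, Bmp6 rose from 5.06 to 14.8 CPM in clone 1 and from 13.51 to 20.8 CPM in clone 2, alone of 12 to rise, while 1 fell in clone 1 and 4 in clone 2. Of 12 BMP target genes, 3 rose and 1 fell in clone 1 and 6 rose in clone 2 (2 rose in clone 1 without clone 3), led by Id1, an inhibitor of bHLH factors, by 1.12 and 1.62, and Smad9 by 0.61 and 0.94. Of the 4 tested relatives of Pi16 in the CAP superfamily, 2 fell in clone 1 and 3 in clone 2, Crispld2 by 0.94 and 0.70 and Glipr2 by 0.37 and 0.63. Of 8 tested olfactomedin-domain relatives of Myoc, Olfm2 (1.17 and 2.12) and Olfml2a (0.66 and 0.80) rose in both clones, and Olfml3 fell in clone 1. Of 13 class 3 semaphorins and receptors, 1 rose and 5 fell in clone 1, and 1 rose and 4 fell in clone 2, with Sema3b lower by 0.42 and 0.47. Of 8 tested Ly6 family genes, 1 rose and 3 fell in clone 1, the riser being Ly6c2 (0.92), which shares sequence with Ly6c1, and 1 fell in clone 2.

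Markers of other cell types moved with induction in the same clones. Summed over 12 endothelial markers, levels were 46.7 to 52.0 CPM in uninduced libraries, 131 to 150.3 CPM in induced clones 1 and 2 and 55.7 to 61.0 CPM in induced clone 3. Nearly all of this was Tek, an angiopoietin receptor, which went from 38.0 to 136 CPM in clone 1 and from 40.0 to 121 CPM in clone 2. Several endothelial markers were near 0: Sox17 was at 0 in 12 libraries, Cldn5 in 9 and Emcn in 7, and Pecam1 was at most 0.279 CPM. Others were low but present, with Kdr at up to 6.46 CPM, Erg at up to 3.89 and Cdh5 at up to 3.00 CPM. Cdh5 rose by 1.46 on the log2 scale in clone 1 and 2.01 in clone 2 (edgeR adjusted p 0.000392 and 9.86e-05). Of the 7 endothelial markers tested, 3 rose in each of clones 1 and 2: Tek and Cdh5 in both, Esam in clone 1 and Erg in clone 2. Leaving out the OSKM library of clone 1 left 2 of 7 in clone 1. Cd34 is also made by endothelial cells.

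Summed over 10 mesothelial markers, levels were 30.99 to 48.7 CPM in uninduced libraries, 72.3 to 91.5 CPM in induced clones 1 and 2 and 43.5 to 45.9 CPM in induced clone 3, with none of the 10 at 0 in all libraries. There, 7 of 10 rose in clone 1 and 5 of 10 in clone 2, among them Msln, from 4.71 to 23.8 CPM and from 5.35 to 21.5 CPM, and the keratins Krt8 and Krt19. Of 12 general fibroblast markers, 5 fell in clone 1, and 5 fell and 1 rose in clone 2, with Col1a1 lower by 0.48 and 0.43. The counts that fell were 2 in clone 1 without its OSKM library, and 3 in clone 1 and 2 in clone 2 without clone 3. The part of these markers in the levels of the 10 genes was not tested.

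With B12, 11 of 12 macrophage markers rose in the average over both states (median log2 fold change 0.57), 5 of 12 without clone 3, and their sum lay between 1251 and 3191 CPM over all libraries, in ranges of 1251 to 2406 in MEF, 1893 to 3191 in MEF with B12, 1268 to 2220 in OSKM and 1943 to 2562 CPM in OSKM with B12. Of 7 haematopoietic progenitor markers tested, 4 rose with B12. None of the 10 adventitial genes is a defining macrophage gene, and the part of these cells in the B12 differences was not tested. With induction, 4 of 12 macrophage markers fell in clone 1, and 2 fell and 1 rose in clone 2. Without the OSKM library of clone 1, 10 fell in clone 1, and 6 fell and 1 rose in clone 2. Schwann and neural markers summed to 35.6 to 59.2 CPM, with 2 of 11 lower in each of clones 1 and 2, and muscle markers to 5.50 to 9.97 CPM, with 1 of 5 lower in clone 1 and 1 higher and 1 lower in clone 2.

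Across the 12 libraries, the profiles most like those of the 3 chosen genes were sought among 11926 genes by Pearson's r of log2 CPM. These values are descriptive, since the libraries share clones and states. For Pi16 the 5 genes were Fgd5 (r = 0.991), Frmd3 (0.987), Anxa8 (0.986), Itgb4 (0.986) and Add3 (0.981), and Itgb4, an integrin subunit of hemidesmosomes, went from 1.85 to 17.0 CPM in clone 1 and from 1.89 to 19.3 CPM in clone 2, and from 2.58 to 3.38 CPM in clone 3. For Myoc they were Dock9 (0.979), Mras (0.972), Rps13 (0.968), H3f3a (0.964) and Lap3 (0.961). A high r does not mean changes of like size. In MEF and in OSKM clones 1 to 3, Dock9 was at 32.35, 45.6, 56.75 and 40.75 CPM, and H3f3a at 340, 362, 378 and 359 CPM. For Chrdl1 the 5 genes were Rps3a2 (0.988), Rpl15-ps3 (0.988), Pamr1 (0.985), Rpl10-ps1 (0.981) and Bmp6 (0.98), of which the ribosomal protein copies share sequence with other genes and are uncertain. Within the 10, Pi16 was most like Cd34 (r = 0.975) and Chrdl1 most like Ly6c1 (0.969), while Dpt ran against Pi16 (-0.634).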

How the data were processed

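RNA of mouse embryonic fibroblasts was sequenced in 12 libraries, 3 per group, from 3 embryos. The authors selected poly(A) RNA, made strand-specific libraries, aligned read pairs with STAR 2.5.2 to mm10 (GRCm38) and assigned the pairs to genes with featureCounts set to reverse-stranded, adding the flow cells of a library. The deposited table holds raw counts, 1 column per library. How multi-mapping reads were handled is not given in the sources used here. Totals of 56971244 to 79236795 pairs set the counting precision, and the counts carry no molecular identifiers.

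The 10 genes and all gene lists were chosen with earlier results of these data known. CPM were computed from the deposited counts with TMM-scaled totals (0.934 to 1.06), and log2 CPM with a prior count of 2. Tests used edgeR 4.0.16 (quasi-likelihood F test, filterByExpr by group, 19174 genes kept) in R 4.3.3 with clone and group as terms, and Benjamini-Hochberg adjustment over all genes kept at a threshold of 0.05. The biological coefficient of variation was 8.04%. Each SE of a fitted difference is its absolute log2 value divided by the square root of its F statistic. A second fit, with terms for clone, state, clone by state and B12 within each state, tested differences between clones and gave the within-clone differences and the fit blocked for each clone and state. The tests of induction, of B12 averaged over both states and of a difference between clones were tried on simulated counts. Those counts had no differences between uninduced clones. The within-clone differences and the B12 differences blocked for each clone and state were not tried on them. The study's methods name no test for these gene counts.

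The clone number marks the embryo, so it pairs the libraries, and libraries of 1 clone deviated together from their group means (r of 0.27 to 0.687 over 18 pairs of libraries, against -0.51 to 0.17 over 36 pairs of different clones). Deviations from a mean of 3 libraries sum to 0, so the values between clones are pushed below 0 and are no independent baseline. Alternatives were DESeq2 1.42.0, DESeq2 size factors, no filter, at least 10 counts in every library, no replicate block, only the groups compared, and leaving out each clone or the OSKM library of clone 1. Named list genes are up to 4 per list with the largest change among those called in a comparison, and the 5 genes most like each of the 3 chosen ones among named genes with a mean log2 CPM of at least 1. Gene models came from GENCODE M21, which matched 55394 of 55573 identifiers, and promoters from RefSeq. One result for a listed relative is not reported here.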

Additional observations from a re-analysis of the deposited data

Results flagged for a closer look

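The response to induction differed between clones, by the edgeR test of that difference, for 5 of the 7 genes tested: Dpp4 (adjusted p 0.00927), Ly6c1 (0.049), Cd34 (0.00202), Dpt (0.0144) and Clec3b (0.000653). The same test called 7 of the 25 other adventitial genes, Cd55 (adjusted p 0.02), Efhd1 (0.0404), Igfbp6 (0.00027), Pcolce2 (0.00402), Wnt2 (0.000625), Il33 (0.00371) and Has1 (0.044). It called 3 of the 13 parenchymal-type genes, Penk (0.0357), Cxcl12 (0.0151) and Hsd11b1 (0.0286). Without the OSKM library of clone 1 the test called 7 of the 25 and 7 of the 13, and without clone 3 it called 0 of each. Over all genes it called 413 in the main fit, 838 without that library and 0 without clone 3. In clone 3 the within-clone fit called none of these 15 genes, and its induced libraries held 2.33 to 2.86 CPM of Pou5f1 against 18.5 to 20.7 CPM in the other clones. The part of that difference in these results was not tested.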

How the results depend on the processing

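Induction over all clones called 0 of 7 genes in the main edgeR test, 3 without B12 and 1 with B12 under DESeq2, and 4 and 3 with no filter on low counts. Over all genes these counts were 14 and 20 in the main test, 487 and 416 under DESeq2, and 681 and 646 with no filter. Leaving out libraries gave 0 to 4 calls for induction without B12 and 0 to 4 with B12, the 4 without clone 3. Calls for a difference between clones ranged from 0 (without clone 3) to 6, calls in clone 2 from 3 (without clone 3) to 7, and calls in clone 1 from 6 to 7. Over all genes, the counts without clone 3 were 0 for that difference and 1066 in clone 2, against 413 and 1998 in the main fit. The other counts were 0 throughout, except that B12 averaged over both states called 1 of 10 with the block for each clone and state. With no replicate block, the paired structure by clone was ignored, and the counts were 0 of 7 for induction and 0 of 10 for B12, so it changed no count. Over all genes that setting called 0 for induction, and 0, 0 and 90 for B12 in OSKM cells, in MEFs and averaged. The cause of these changes was not tested. The values that changed sign were B12 differences, and none was called in any fit. Over the fits that left out libraries, the difference in OSKM cells ranged from -0.057 to 0.44 for Pi16 (0.032 without clone 1), -0.16 to 0.091 for Chrdl1, -0.22 to 0.10 for Dpp4, -0.060 to 0.074 for Cd34, -0.10 to 0.0099 for Sema3c and -0.017 to 0.17 for Clec3b, and the average ranged from -0.14 to 0.14 for Pi16, -0.052 to 0.014 for Cd34 and -0.042 to 0.054 for Clec3b. The highest value was that without the OSKM library of clone 1, which leaves the induced B12 library of that clone without its partner, except for Sema3c, where it was that without clone 3. Clec3b in OSKM cells, at 0.0012 in the main fit, was -0.000389 with DESeq2, -1.42e-06 with DESeq2 size factors and -0.00196 with the block for each clone and state.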
